A study of Arabidopsis thaliana with 32 samples.

Results

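The transcripts described here are the 200 nuclear transcripts of untreated Arabidopsis wild type (Col-0) whose signal lay furthest toward the monosome fraction and away from the polysome fraction. For each gene the log2 ratio of (polysome value + 1) to (monosome value + 1) was averaged over Col replicates 2, 3 and 4, genes with a mean value below 100 over those 6 libraries, genes of the organelle genomes and 4 rRNA genes were left out, and the 200 genes with the lowest mean ratio of 13530 eligible genes (23775 listed) were taken. The members were thus chosen by the measured polysome and monosome values of these 3 Col replicates, whose values are given as a description, and tests were made only in libraries that took no part in the choice.

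Whole seedlings of 10 days were used throughout, and RNA of both ribosome fractions was sequenced in 32 libraries. *2OX* was a single line expressing *MCU2*-YFP from the 35S promoter, and the sextuple mutant combined the alleles *mcu1-1* to *mcu6-1*, T-DNA insertions except for the CRISPR allele of *MCU5*, with residual *MCU* transcripts. *MCU* genes encode the mitochondrial calcium uniporters. AA-treated wild type received 50 µM antimycin A, an inhibitor of the mitochondrial electron transport chain, and DMSO-treated wild type the solvent, for 5 h according to the labels and 4 h according to the methods. Seedlings of both treatments had stood overnight in liquid medium in the dark, which the 3 untreated groups had not. Each group had 3 replicates except Col, which had 4. Lysates contained cycloheximide and chloramphenicol, which stop translating ribosomes. The labels do not say whether replicates were separate cultures, so the p-values measure the spread between these samples only.

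A messenger RNA bound by a single ribosome sediments with the monosomes, and a messenger RNA carrying several ribosomes sediments with the polysomes. The monosome fraction can also hold RNA that is not being translated but is bound to particles of similar size, and short reading frames have room for few ribosomes. Proteins for secretion, for membranes and for the vacuole usually start with or contain a hydrophobic stretch that is bound by the signal recognition particle, which directs the ribosome to the endoplasmic reticulum. Translational efficiency (TE) is used here for the ratio of polysome to monosome signal, on a log2 scale.

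The 200 transcripts were of several kinds. By the TAIR10.1 annotation, 174 were protein-coding, 18 were noncoding RNAs and 8 were pseudogenes. The noncoding RNAs among the members were 18.75% of the 96 eligible ones, and 8 of 78 eligible pseudogenes were members. Noncoding RNAs were thus 0.710% of the eligible genes and 9% of the members, and pseudogenes 0.576% and 4%. Counts by class are to be read beside the share over all genes, 200 members of 13530 eligible.

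The start of 3 members without an annotated reading frame is printed with every ATG in capitals, since these had some of the lowest ratios of all. *SADHU1-1* lies at chr2:4006965-4007044 (minus strand), AT5G07322 at chr5:2313484-2313563 (minus strand) and AT3G61198 at chr3:22656520-22656599 (minus strand), RefSeq TAIR10.1, and the first bases of each transcript read as follows.
SADHU1-1: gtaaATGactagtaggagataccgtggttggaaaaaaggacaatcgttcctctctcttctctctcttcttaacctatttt
AT5G07322: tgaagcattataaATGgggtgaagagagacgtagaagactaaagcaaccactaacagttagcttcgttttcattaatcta
AT3G61198: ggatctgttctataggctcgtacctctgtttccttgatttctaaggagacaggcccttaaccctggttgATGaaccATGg

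The longest reading frame starting with ATG in the 18 noncoding RNA members had between 24 and 83 codons (median 45.5), in transcripts of 135 to 1222 bases. In *SADHU1-1*, of 1050 bases, it had 39 codons.

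For 5 members with an N-terminal hydrophobic stretch, the first 120 bases of the coding sequence are shown, with the codons of the most hydrophobic window of 19 residues in capitals (RefSeq TAIR10.1, coding strand). QSOX1 (chr1:5175986-5176105, minus strand), a sulfhydryl oxidase, XTH8 (chr1:3880167-3880286, minus strand), a xyloglucan endotransglucosylase of the cell wall, ALP (chr5:24280044-24280163, plus strand), an aleurain-like cysteine protease of the vacuole, OSM34 (chr4:7025994-7026113, minus strand), an osmotin-like protein, and RALF23 (chr3:5644748-5644867, plus strand), a secreted signalling peptide, were taken because they differ in function. All but ALP and OSM34 were chosen after their values were seen.
QSOX1: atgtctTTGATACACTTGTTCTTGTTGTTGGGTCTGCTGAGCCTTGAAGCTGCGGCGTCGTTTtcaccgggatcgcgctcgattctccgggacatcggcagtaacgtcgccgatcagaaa
XTH8: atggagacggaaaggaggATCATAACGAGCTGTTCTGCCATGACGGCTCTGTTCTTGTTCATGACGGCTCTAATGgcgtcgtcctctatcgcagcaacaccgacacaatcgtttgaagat
ALP: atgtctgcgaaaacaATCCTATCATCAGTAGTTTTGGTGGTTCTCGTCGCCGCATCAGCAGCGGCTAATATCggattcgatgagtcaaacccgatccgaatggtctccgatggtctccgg
OSM34: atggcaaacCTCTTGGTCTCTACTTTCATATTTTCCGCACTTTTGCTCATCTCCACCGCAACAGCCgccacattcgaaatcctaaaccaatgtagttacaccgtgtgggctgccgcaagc
RALF23: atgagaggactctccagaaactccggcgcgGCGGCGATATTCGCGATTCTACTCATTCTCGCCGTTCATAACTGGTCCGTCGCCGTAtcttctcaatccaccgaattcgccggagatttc

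The mean Kyte-Doolittle hydropathy of the marked windows was 1.96 for QSOX1, 1.89 for XTH8, 2.34 for ALP, 2.04 for OSM34 and 2.15 for RALF23. A protein was counted as having a stretch if such a window reached a mean of 1.6 within its first 40 residues. By this measure, 86 of the 174 protein-coding members (49.4%) had a stretch, against 12.1% of the 13356 eligible genes with a reading frame.

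The third set shown belongs to a single protein family. The 4 eligible genes listed as *LHCB1*, which encode the main chlorophyll a/b-binding protein of the light-harvesting complex of photosystem II, were all members. The class was a list of gene identifiers made after the members were seen. A gene of the family that was not listed or not eligible is not counted. *CAB1*, *CAB2* and *CAB3* lie next to each other on chromosome 1, and their first 120 coding bases are shown because the 3 genes are so alike that reads can be split between them. Capitals mark the 9 positions at which the 3 genes differ, at chr1:10478071-10478190 (plus strand), chr1:10475773-10475892 (minus strand) and chr1:10473127-10473246 (minus strand).
CAB1: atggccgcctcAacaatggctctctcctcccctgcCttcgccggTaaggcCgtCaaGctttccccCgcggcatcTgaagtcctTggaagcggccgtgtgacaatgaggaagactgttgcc
CAB2: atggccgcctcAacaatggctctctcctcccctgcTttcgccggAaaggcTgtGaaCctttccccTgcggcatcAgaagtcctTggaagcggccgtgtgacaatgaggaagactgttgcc
CAB3: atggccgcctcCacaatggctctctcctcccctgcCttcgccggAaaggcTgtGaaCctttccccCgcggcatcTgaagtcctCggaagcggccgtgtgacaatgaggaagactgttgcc

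The values were a normalized signal per gene and library, and depth in reads is unknown. Genes of rRNA took between 15.5% and 63.4% of the signal of a library. *MCU2* had 549 to 800 units in the monosome and 763 to 999 in the polysome libraries of *2OX*, against 177 to 269 and 196 to 227 in Col of the same table. In the sextuple mutant *MCU2* had 153 to 211 and 209 to 247, against 210 to 333 and 233 to 310 in Col, and the groups overlapped in both fractions. The leaf markers *RBCS1A* and *RCA* were abundant in all groups, and the root list of *EXPA7*, *COBL9*, *NRT2.1* and *SCR* summed to between 178 and 1190 units per library, with *NRT2.1* at 0 in 1 Col monosome library. In whole seedlings, fewer cells of a type and less RNA per cell cannot be told apart.

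In the libraries that made the choice, the mean ratio of the members ran from −3.33 for *SADHU1-1* to −1.22 (median −1.38), and the median of the eligible genes was 0.46. The last 3 genes inside the limit were *AGP22*, AT1G27200 and *ATPMEPCRD*, each at −1.22, and the first 3 outside it were *ANT1* at −1.22, *CYP81D4* at −1.21 and *HEMA2* at −1.21. The limit therefore cut a continuous series. The mean value of the members ran from 101 to 578543 units (median 292), and the eligible genes had a median of 378.

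From here on, ratios were taken after each library was centred on its median log2 value over nuclear genes other than rRNA, so that a negative ratio lies below the typical transcript of that replicate. The members kept a low ratio in the 13 replicates that had not chosen them. In these, 196 of the 200 members were below 0 in every replicate, 100 were below −1 in every replicate, and 4 were above 0 in at least 1 replicate. Col replicate 1, which was not among the choosing replicates, had a member median of −1.50, and 186 members lay in the lowest 10% of the eligible genes. The number in that range was 191 to 193 in the *2OX* replicates, 183 to 193 in the sextuple mutant, 178 to 187 in DMSO-treated wild type, and 180, 177 and 146 in AA-treated replicates 1, 2 and 3. The last of these stood apart from the others, with a member median of −1.40.

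**Figure D1:**
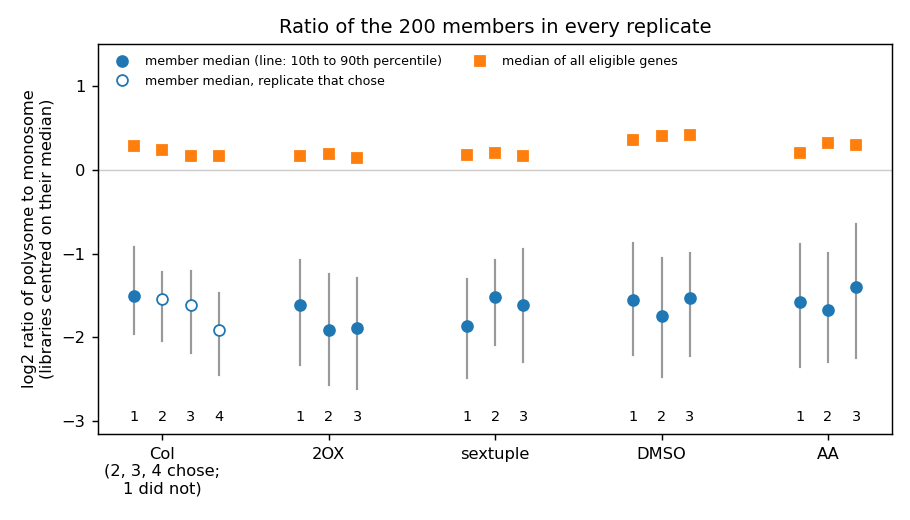
Log2 ratio of polysome to monosome signal (libraries centred on their median) for each replicate of the 5 groups. Circles are the median of the 200 members with lines from the 10th to the 90th percentile, open circles the 3 Col replicates that chose them, and squares the median of all eligible genes. Member medians lie between −1.91 and −1.40, and the eligible medians above 0.

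Within each of the 4 groups that did not choose the members, polysome and monosome libraries were compared with limma across all genes, on the log2(value + 1) scale, which understates changes of low genes. In DMSO-treated wild type 198 of 199 members tested were lower in polysomes (adjusted p under 0.05 by limma), where 23.1% of all genes were called lower. In AA-treated wild type 194 of 199 were lower (18.1% of all genes), in the sextuple mutant 198 of 200 (18.6%) and in *2OX* 199 of 200 (14.9%). No member was called higher in polysomes in any of the 4 groups, where 35.3%, 25.5%, 26% and 20.3% of all genes were. Among the eligible genes alone, 23.1%, 19.5%, 22% and 18% were called lower. The member medians of the fitted log2 ratio were −1.66, −1.64, −1.66 and −1.80, where the medians of all genes were 0.17, 0.10, 0.10 and 0.09. Thus nearly all members lay on the monosome side in libraries of other genotypes and treatments, at shares far above the background of each comparison.

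The exceptions were few. AT2G29170, a predicted Rossmann-fold oxidoreductase, had 0.00315 to 6.19 units in the libraries of the AA and DMSO table, below the filter on low values, and was not tested there. *GDU4*, of the glutamine dumper family of membrane proteins, had 210, 141 and 292 units in the DMSO monosome libraries and 124, 117 and 111 in the polysome libraries. The ranges did not overlap as deposited but did after centring, with a log2 ratio of −0.48 ± 0.26 (SE, n = 3, limma adjusted p = 0.128). The other members not called had log2 ratios of −0.83 to −0.28 (limma adjusted p = 0.0589 to 0.214): *ENA*, *GDU4*, AT1G53030, AT3G05760 and AT3G58690 in AA-treated wild type, *OSM34* and AT5G08295 in the sextuple mutant and *ATL2* in *2OX*. AT1G53030 is annotated as COX17, a copper chaperone of cytochrome c oxidase, and *ATL2* encodes a RING ubiquitin ligase.

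Among the transcripts without an annotated protein, *SADHU1-1* had the lowest ratio in all 5 groups. It belongs to the Sadhu retroelements, which resemble short interspersed elements (chr2:4005995-4007044, minus strand), and overlaps another annotated gene, AT2G10405. Reads of the pair may therefore not have been told apart. Its monosome values were 2887, 2724 and 5153 units in Col replicates 2 to 4 and its polysome values 333, 291 and 409. With DMSO it had 20071, 22214 and 17981 units in monosomes and 1233, 1067 and 1200 in polysomes, so every monosome library lay far above every polysome library. The log2 ratio there was −3.78 ± 0.12 (SE, n = 3, limma adjusted p = 6.08e-11). The sextuple mutant had 4414, 2486 and 4907 units in monosomes against 396, 313 and 500 in polysomes, a log2 ratio of −3.56 ± 0.23 (limma adjusted p = 8.87e-08). Levels of the AA and DMSO table were not set against those of the other tables, which were normalized separately.

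AT5G07322, annotated only as an RNA gene (chr5:2313119-2313563, minus strand), was the second lowest in Col, with 1497, 1717 and 2255 units in monosomes and 289, 271 and 393 in polysomes. In the sextuple mutant it had 1952, 1370 and 2142 against 209, 283 and 384 units, a log2 ratio of −2.97 ± 0.22 (SE, n = 3, limma adjusted p = 2.24e-07). AT3G61198, another such gene (chr3:22655884-22656599, minus strand), had 557, 766 and 458 units in the DMSO monosome libraries and 53.6, 68.8 and 54.7 in the polysome libraries. Neither transcript had overlapping fractions in these groups. Of the 18 noncoding RNA members, all 18 were called lower in polysomes in *2OX*, DMSO-treated and AA-treated seedlings and 17 in the sextuple mutant, with medians of −2.05, −2.06, −1.88 and −1.78. Of the eligible noncoding RNAs, members included, 55.2%, 70.8%, 65.3% and 59.4% were called lower in the same order of groups. All 8 pseudogenes were called lower in each of the 4 groups, with a median of −2.12 in DMSO-treated wild type.

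*AT7SL-1* (chr4:1317499-1319179, plus strand) is named for 7SL RNA, the RNA of the signal recognition particle, although the annotation also gives it a reading frame. It had 220, 134 and 286 units in Col monosomes and 63.5, 76.2 and 63.0 in polysomes. After DMSO treatment it had 2353, 1932 and 1074 units in monosomes against 122, 158 and 125 in polysomes, and its log2 ratio of −3.33 ± 0.24 (SE, n = 3, limma adjusted p = 2.98e-08) was the second lowest of the members. In the sextuple mutant the ratio was −1.99 ± 0.26.

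Proteins with no described function made up 24 members, by product name. That class also took in *RAP2.4* and *XBAT31*, whose products are described elsewhere, and 12 of the 24 were shorter than 100 residues. AT5G49440, the lowest protein-coding member (chr5:20048239-20049776, plus strand), had 7452, 6690 and 9849 units in Col monosomes against 1609, 1349 and 1450 in polysomes. In DMSO-treated seedlings it had 42810, 47993 and 29943 units against 3724, 3786 and 3105, a log2 ratio of −3.16 ± 0.17 (SE, n = 3, limma adjusted p = 4.28e-09). All 24 were called lower in polysomes in each of the 4 groups, with medians of −2.14 in DMSO-treated wild type and −1.68 in the sextuple mutant. AT4G04925 was also low in each, with 923, 1073 and 1171 monosome units and 125, 85 and 141 polysome units in DMSO-treated wild type.

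The *LHCB1* members held most of the signal of the list. In Col replicates 2 to 4 they took 10.7%, 9.10% and 13.7% of the nuclear monosome signal and 1.84%, 2.02% and 2.07% of the nuclear polysome signal. All 200 members together took 10.2% to 15.2% and 2.14% to 2.39%. *CAB1* had 822828, 728400 and 1224380 units in Col monosomes against 217530, 234201 and 243915 in polysomes. With DMSO it had 413370, 645101 and 409206 against 121013, 129984 and 141762 units, so the fractions did not overlap and the log2 ratio was −1.55 ± 0.29 (SE, n = 3, limma adjusted p = 0.000266). The ratio of *CAB1* was −2.12 in the sextuple mutant and −2.49 in *2OX*. *CAB1* overlaps a neighbouring gene on the annotation.

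*LHB1B1*, the fourth *LHCB1* member, on chromosome 2 and chosen for description after its values were seen, had 193159, 187686 and 302921 units in Col monosomes against 60345, 70622 and 68709 in polysomes. In the DMSO group it had 5178, 8192 and 6711 against 905, 1134 and 1429 units, with a log2 ratio of −2.21 ± 0.17 (SE, n = 3, limma adjusted p = 6.45e-08). The coding sequences of *CAB1*, *CAB2* and *CAB3*, of 804 bases each, were 95.6% to 96.4% identical to each other, and *LHB1B1* was 87.4% to 88.8% identical to them. Values of the 3 *CAB* genes are therefore uncertain one by one.

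The *LHCB2* genes, whose product is the partner of LHCB1 in the same antenna complex, lay at the other end. Their coding sequences were 72.6% to 75.8% identical to those of the *LHCB1* members. By rank of the Col ratio, *LHCB2.1*, *LHCB2.2* and *LHCB2.3* stood at 13437, 13329 and 13459 of 13530. In DMSO-treated wild type, where neither set was chosen, the fitted log2 ratios of the 3 *LHCB2* genes were 2.25 ± 0.19, 2.13 ± 0.19 and 1.54 ± 0.18 (SE, n = 3, limma adjusted p = 1.62e-07, 2.72e-07 and 3.58e-06), and those of the 4 *LHCB1* members were −2.21 to −1.55. The signs were opposite in all 3 replicates. In AA-treated wild type *LHCB2.3* had a smaller ratio of 0.68 ± 0.24 (limma adjusted p = 0.0305). *LHCB3* had a mean centred ratio of −0.99 ± 0.25 (SD, n = 3) in Col and −0.06 ± 0.34 in DMSO-treated wild type, and *LHCB4* to *LHCB6* had mean ratios of −0.23 to 0.07 in Col.

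**Figure D2:**
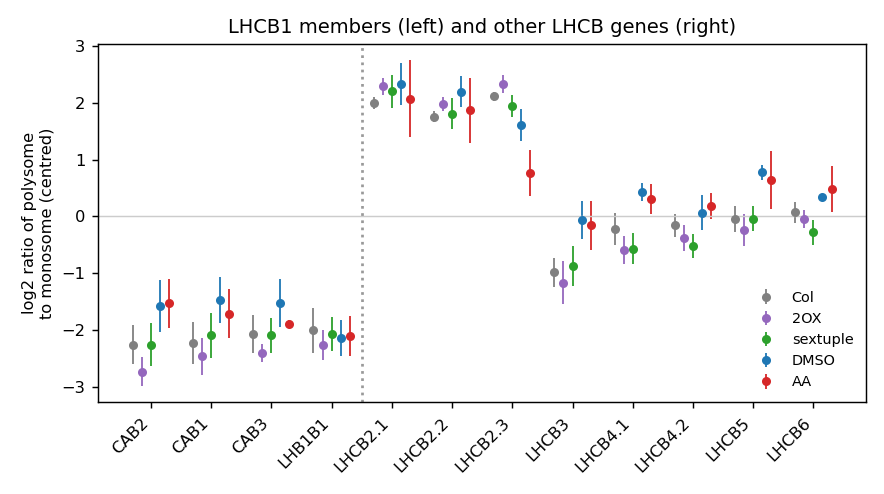
Mean log2 ratio of polysome to monosome signal (libraries centred on their median) with SD over 3 replicates, by group, for the *LHCB1* members left of the dotted line and the other *LHCB* genes right of it. The *LHCB1* members lie below −1.4 in each group, and *LHCB2.1* and *LHCB2.2* above 1.7.

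The members with an N-terminal hydrophobic stretch were spread over many roles. All 6 proteases of vacuolar and secreted types, all 4 trichome birefringence-like proteins, 7 of 10 glycosyltransferases, 6 of 8 kinases and phosphatases and 4 of 5 secreted peptides and wall proteins had one. None of the 6 transcription factors, 4 *LHCB1* members and 3 WIND factors had one, and 5 of the 24 undescribed proteins did. The 86 members with a stretch had median log2 ratios of −1.59 in DMSO-treated wild type, −1.58 in AA-treated wild type, −1.55 in the sextuple mutant and −1.66 in *2OX*, and the other protein-coding members −1.73, −1.65, −1.70 and −1.85. The median of the members with a stretch was thus the nearer to 0 in each of the 4 groups, a difference that was not tested.

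The share of genes with a stretch changed along the whole ranking. It was 49.4% among the members, 47.6% in ranks 201 to 400, 43.8% in ranks 401 to 800, 40.8% in ranks 801 to 1600, 25.6% in ranks 1601 to 3200, 9.39% in ranks 3201 to 6400 and 3.49% beyond. The feature was therefore not particular to the 200 members. In DMSO-treated wild type, the eligible genes with a stretch had a median log2 ratio of −0.83 and 66.7% of them were called lower in polysomes, against 0.42 and 16.6% for those with a reading frame but no stretch. Short proteins followed another course, with 9.77% of the coding members below 100 residues, 2.67% in ranks 201 to 400 and 3.38% of all eligible genes. The median protein length of the members was 314.5 residues against 380, their median transcript length 1432 bases against 1708 and their median exon number 3 against 5. An upstream ATG in the 5′ leader was found in 67.2% of the coding members and 63.5% of the eligible genes.

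**Figure D3:**
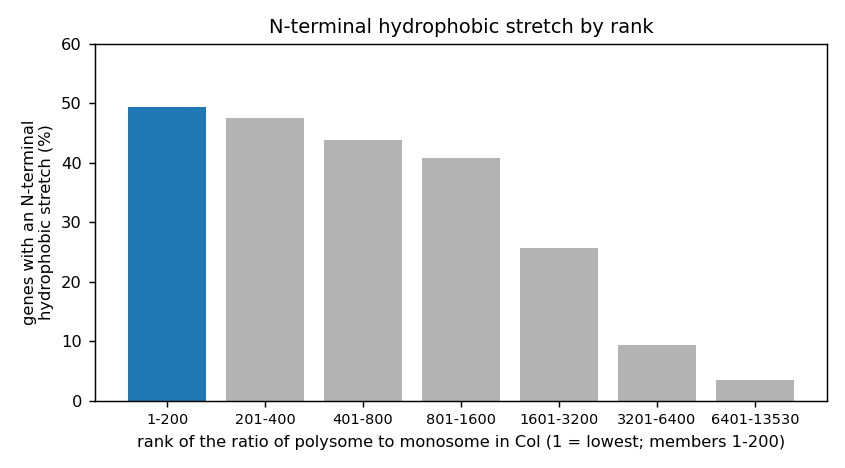
Percentage of genes with a reading frame whose first 40 residues hold a hydrophobic window of 19 residues, for 7 bins of rank of the polysome to monosome ratio in Col, where rank 1 is the lowest. The bar of the members (ranks 1 to 200) stands at 49.4% and the last bar at 3.49%.

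*QSOX1*, the lowest member with a stretch, had 547, 381 and 640 units in Col monosomes and 95.2, 165 and 154 in polysomes. With DMSO it had 1217, 1405 and 1010 against 163, 152 and 176, a log2 ratio of −2.55 ± 0.17 (SE, n = 3, limma adjusted p = 1.55e-08), and in the sextuple mutant the ratio was −2.03 ± 0.19. The gene overlaps AT1G15015. *RALF23* had 2842, 2036 and 2679 units in monosomes and 993, 1013 and 1245 in polysomes of the sextuple mutant, with a ratio of −1.52 ± 0.15 (limma adjusted p = 2.98e-06). In both genes every monosome library was above every polysome library.

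The 4 *TBL* members, from a family that transfers acetyl groups to cell wall polysaccharides, were 4 of 17 eligible. *TBL37* had 4747, 5085 and 4324 monosome units and 1013, 957 and 1068 polysome units in DMSO-treated wild type, with a log2 ratio of −1.89 ± 0.12 (SE, n = 3, limma adjusted p = 1.23e-08). The ratios of the 4 *TBL* members lay between −1.89 and −1.75 in DMSO-treated wild type and between −1.76 and −1.46 in the sextuple mutant. The 10 glycosyltransferases (of 148 eligible) build wall polysaccharides and glycoproteins and had medians of −1.29 and −1.70 in these groups, and the 6 proteases (of 75) −1.41 and −1.54. All members of these 3 classes were called lower in polysomes in each of the 4 groups. Over all eligible genes of the class, members included, 76.5% to 94.1% of the *TBL* genes, 46.6% to 66.2% of the glycosyltransferases and 45.3% to 69.3% of the proteases were called lower in a group. These classes, with the LHCB1, pectin enzyme, transporter and WIND classes, were formed after the members were seen, and their counts describe the list only.

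Of the 7 transporter members, of 300 eligible, *NRT1.5*, which loads nitrate into the xylem, had the lowest ratio in Col, with 4038, 2887 and 3626 monosome units and 1395, 1036 and 946 polysome units. After DMSO treatment it had 4622, 5074 and 3699 against 1079, 907 and 1072, with a log2 ratio of −1.80 ± 0.14 (SE, n = 3, limma adjusted p = 6.28e-08). It overlaps AT1G32440. All 7 transporters and all 3 pectin enzymes were called lower in polysomes in each of the 4 groups. Transporters were 2.22% of the eligible genes and 3.5% of the members.

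Among regulators, the 3 eligible WIND genes, AP2/ERF transcription factors known for wound-induced dedifferentiation, were all members. *RAP2.4* had 2606, 2571 and 3964 units in Col monosomes against 1013, 1352 and 1210 in polysomes. In DMSO-treated seedlings it had 20158, 23360 and 17939 against 2777, 2245 and 3434 units, with a log2 ratio of −2.55 ± 0.15 (SE, n = 3, limma adjusted p = 9.71e-09). AT1G22190 and AT1G36060 had ratios of −2.54 ± 0.14 and −2.55 ± 0.16 there, and the 3 genes lay between −1.90 and −1.70 in the sextuple mutant. *LARP6a*, a La-related RNA-binding protein, had 5825, 7058 and 5981 monosome units and 975, 869 and 1257 polysome units in DMSO-treated wild type, with a ratio of −2.29 ± 0.14 (limma adjusted p = 1.13e-08). No fraction overlapped with the other for these genes.

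**Figure D4:**
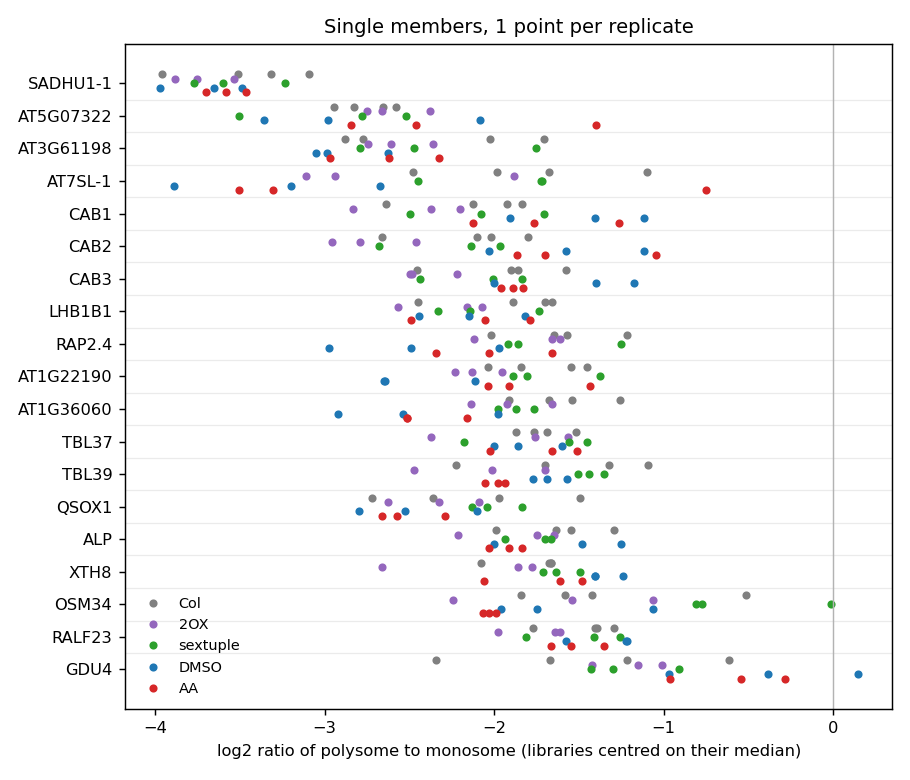
Log2 ratio of polysome to monosome signal (libraries centred on their median) of selected members, with 1 point per replicate coloured by group. The lowest points are those of SADHU1-1, and GDU4 has 1 replicate above 0.

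The classes searched for by role in translation or respiration supplied few members by number. Genes matched by respiratory chain names were 0.576% of the eligible genes and 1% of the members. Listed genes under control of a conserved upstream reading frame were 0.237% and 0.5%. These small counts were not tested. None of the 329 ribosomal protein genes, 39 histone genes and 12 copies of mitochondrial sequence on chromosome 2 that were eligible was a member. Of 32 listed genes under control of a conserved upstream reading frame, 1 was, AT4G25690, with 3456, 4436 and 4139 monosome units and 951, 925 and 1000 polysome units in DMSO-treated wild type (log2 ratio −1.73 ± 0.12, SE, n = 3, limma adjusted p = 2.99e-08). The members matched by respiratory chain names were 2 of 78, AT1G53030 and AT1G10865, both annotated with roles in cytochrome c oxidase assembly and not as subunits. Matched by product name, transcription factors supplied 6 of 555, RNA-binding proteins 2 of 194 and kinases and phosphatases 8 of 479. In that order, these classes were 4.10%, 1.43% and 3.54% of the eligible genes and 3%, 1% and 4% of the members. *RAP2.4*, whose product name gives no role, is not counted among the transcription factors. Of the 200 members, 44 (22%) overlap another annotated gene, against 30.5% of the eligible genes.

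The effect of AA on these transcripts was measured against DMSO in each fraction. Since the values were normalized, a change is relative to the other transcripts of that fraction. It does not measure the amount of RNA on polysomes, and the paper's gradient profiles showed a significant shift toward monosomes with AA. In the monosome fraction 26 of 199 members were lower (13.1%) and 23 higher (11.6%), by limma with adjusted p under 0.05, where 10.2% and 9.75% of all genes were called. In the polysome fraction 21 were lower (10.6%) and 45 higher (22.6%), where 10.5% and 9.52% of all genes were called. Among the eligible genes alone, 9.18% were lower and 11.7% higher in monosomes, and 11.3% lower and 10.4% higher in polysomes. The members' share of higher polysome values stood furthest from both backgrounds. Their share of lower monosome values was somewhat above both, and the other shares were near them. The median change was 0.12 in monosomes and 0.24 in polysomes on the log2 scale, where the medians of all genes were −0.03 and 0.01. Without DMSO replicate 2, 28 members were higher in polysomes, the count of lower monosome values was 17 without DMSO replicate 1 or 2, and that of higher ones was 14 without DMSO replicate 1 and 38 without AA replicate 3.

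A change in TE, the difference between the polysome and the monosome change, was called by limma for 0 members, where 0.786% of all genes were lower and 0.101% higher. At an unadjusted p under 0.05, 2 members were lower and 14 higher, 2581 of all 21769 genes passed in either direction, and the member median was 0.13 against 0.04 for all genes. Of the 199 members, 19 were higher in both fractions, 17 lower in both, 26 higher and 4 lower in polysomes only, 4 higher and 9 lower in monosomes only, and 0 moved in opposite directions. Passing in a single fraction does not show a difference between the fractions, which is what the TE test measures. Of the 86 members with a hydrophobic stretch, 22 (25.6%) were higher in polysomes, and of 87 coding members without one, 19 (21.8%), where the eligible genes had 15.1% and 9.69%.

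**Figure D5:**
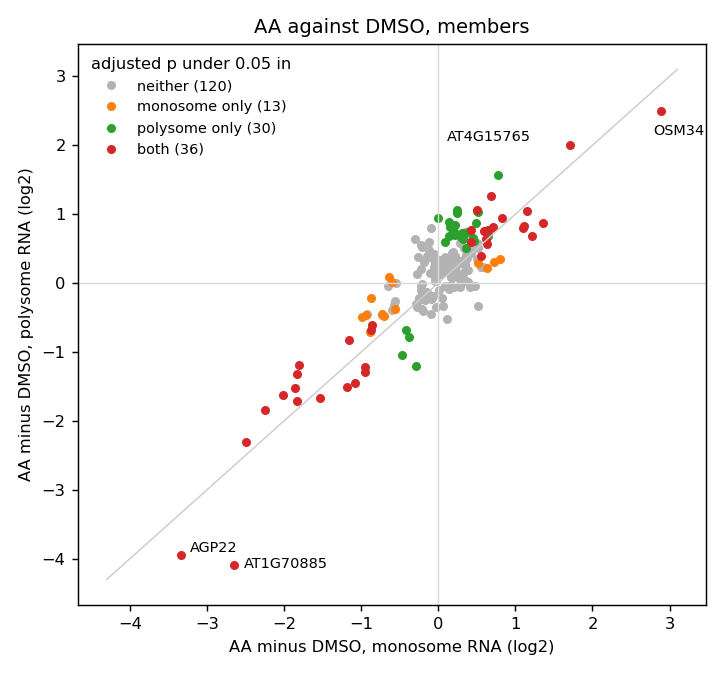
Change from DMSO to AA (log2) in monosome RNA (horizontal axis) and polysome RNA (vertical axis) for the 199 members tested, coloured by the fraction in which limma gave an adjusted p under 0.05. In all, 36 members were called in both fractions and 120 in neither, and the points called in both lie in the quadrants of equal sign.

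The largest rise was that of *OSM34*, of the osmotin family of stress-induced defence proteins. Its monosome values were 984, 840 and 313 units with DMSO and 5353, 4001 and 4959 with AA, and its polysome values 195, 188 and 112 and 1107, 786 and 875. The groups did not overlap, with log2 changes of 2.89 ± 0.31 in monosomes (SE, n = 3, limma adjusted p = 3.72e-06) and 2.50 ± 0.31 in polysomes (adjusted p = 1.52e-05). In the sextuple mutant the same gene had 108, 95.7 and 84.6 monosome units and 76.9, 64.7 and 104 polysome units.

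AT4G15765, a predicted FAD/NAD(P)-binding oxidoreductase, had 345, 321 and 372 monosome units with DMSO and 1028, 1137 and 1237 with AA. Its polysome values were 102, 124 and 115 and 506, 452 and 421, and it rose by 1.71 ± 0.17 in monosomes and 2.01 ± 0.17 in polysomes (SE, n = 3, limma adjusted p = 1.8e-06 and 2.39e-07). *ROC7*, a cyclophilin, had 1124, 1270 and 1104 monosome units with DMSO and 3358, 2894 and 2757 with AA, a rise of 1.36 ± 0.17 (adjusted p = 1.44e-05). *scpl29*, a serine carboxypeptidase-like protein, rose by 1.21 ± 0.23 in monosomes and 0.69 ± 0.23 in polysomes (adjusted p = 0.00117 and 0.0442), and *HL*, a phosphatase related to HAL2, by 1.15 ± 0.20 and 1.04 ± 0.20 (adjusted p = 0.000555 and 0.00118). None of these 4 genes had overlapping groups in either fraction.

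*ALP* had 3109, 4679 and 3519 monosome units with DMSO and 8174, 8536 and 7121 with AA, and 861, 881 and 1108 against 1830, 1865 and 1285 in polysomes. It rose by 1.09 ± 0.17 in monosomes and 0.79 ± 0.17 in polysomes (SE, n = 3, limma adjusted p = 0.000211 and 0.00301). Of the 6 proteases, 3 rose in monosomes and 3 in polysomes, and none fell. Of the 75 eligible proteases, 16% were higher and 6.67% lower in monosomes, and 17.3% higher and 12% lower in polysomes.

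Other members had a larger rise in polysomes than in monosomes by value, without a called change in TE. AT4G25690 had 951, 925 and 1000 polysome units with DMSO and 2418, 1939 and 2566 with AA, a rise of 1.26 ± 0.14 (SE, n = 3, limma adjusted p = 4.11e-06), and rose by 0.68 ± 0.14 in monosomes (adjusted p = 0.00186). Its change in TE was 0.57 ± 0.20 (adjusted p = 0.229). *AT7SL-1* had 122, 158 and 125 polysome units with DMSO and 305, 264 and 784 with AA, where AA replicate 3 was the highest, a rise of 1.56 ± 0.36 (adjusted p = 0.00388). *CYP71B18*, annotated as a pseudogene of the cytochrome P450 family, rose by 1.07 ± 0.18 in polysomes (adjusted p = 0.00026). *RAP2.4* had 2777, 2245 and 3434 polysome units with DMSO and 9049, 6023 and 3376 with AA, and its change of 1.03 ± 0.26 passed the test (adjusted p = 0.0077) although the groups overlapped through AA replicate 3.

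The largest falls with AA included *AGP22*, an arabinogalactan protein of the cell wall. It had 1736, 1561 and 1396 monosome units with DMSO and 124, 179 and 162 with AA, and 670, 644 and 598 against 28.4, 71.9 and 31.9 in polysomes. The log2 change was −3.34 ± 0.27 in monosomes and −3.95 ± 0.27 in polysomes (SE, n = 3, limma adjusted p = 1.79e-07 and 2.8e-08). AT1G70885, annotated as a pseudogene, had 287, 180 and 198 monosome units with DMSO and 33.6, 41.5 and 27.9 with AA, and its AA polysome values of 4.21, 10.2 and 0.0874 were close to 0, so its change of −4.09 ± 0.62 in polysomes (adjusted p = 0.000111) depends on the pseudocount of 1. In both genes the groups did not overlap.

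AT2G28780, annotated as an efflux pump subunit, had 574, 744 and 682 monosome units with DMSO and 78.4, 115 and 174 with AA, and fell by 2.50 ± 0.30 (SE, n = 3, limma adjusted p = 1.32e-05). *SADHU4-1*, another retroelement, had 533, 666 and 433 against 98.4, 113 and 126 and fell by 2.25 ± 0.27 (adjusted p = 1.13e-05), whereas *SADHU1-1* changed by 0.22 ± 0.14 in monosomes (adjusted p = 0.314). *F8H*, a glycosyltransferase of glucuronoxylan synthesis, had 223, 189 and 164 polysome units with DMSO and 59.7, 62.7 and 50.4 with AA and fell by 1.72 ± 0.30 (adjusted p = 0.000444). AT5G07322 fell in both fractions, from 2109, 1399 and 1719 to 526, 594 and 381 units in monosomes (by 1.80 ± 0.27, adjusted p = 0.000105) and from 206, 249 and 125 to 60.9, 83.3 and 106 in polysomes (by 1.18 ± 0.27, adjusted p = 0.00381).

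*NRT1.5* fell, with log2 changes of −1.08 ± 0.16 in monosomes and −1.45 ± 0.16 in polysomes (SE, n = 3, limma adjusted p = 0.000134 and 4.89e-06), with 4622, 5074 and 3699 monosome units with DMSO and 1923, 2554 and 1881 with AA. *XTH8* had 1794, 2304 and 2138 against 700, 1142 and 937 monosome units and fell by 1.19 ± 0.22 (adjusted p = 0.000783). Of the 10 glycosyltransferases, 4 were lower and 1 higher in monosomes, and 2 lower and 0 higher in polysomes. Of the 148 eligible glycosyltransferases, 18.9% were lower and 9.46% higher in monosomes, and 11.5% lower and 8.78% higher in polysomes. The 4 *LHCB1* members were not called in either fraction, with changes of −0.02 to 0.51 in monosomes and −0.34 to 0.58 in polysomes.

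Markers of both organs moved with the same treatment. *EXPA7*, an expansin of root hairs, had 236 to 302 monosome units with DMSO and 47.6 to 64.6 with AA, and 67.7 to 106 against 17.6 to 35.9 in polysomes. Of the 4 genes of the root list, 2 were lower with AA without overlap in monosomes and 3 in polysomes. The sum of the list was 664 to 833 units with DMSO and 377 to 492 with AA in monosomes, and 948 to 1190 against 607 to 802 in polysomes. Most of the polysome sum was *SCR*, with 830 to 1020 units with DMSO and 578 to 749 with AA. The leaf list of *RBCS1A*, *RCA*, *CAB1* and *LHCB2.1* moved the other way where its groups did not overlap. In monosomes *RCA* had 9744 to 12325 units with DMSO and 13766 to 18212 with AA, and *LHCB2.1* 2404 to 3021 against 6153 to 7614. *RBCS1A* and *CAB1* overlapped in monosomes, and all leaf markers overlapped in polysomes. The part of root and leaf cells in the changes of the members was not tested.

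The ratio of the members was last compared between *2OX* and the sextuple mutant, the lines with more and less *MCU* transcript. Since these lie in separate tables, libraries centred on their own medians were joined in a single fit. No member was called in either direction by limma, and neither was any of the 20742 genes tested (0% lower and 0% higher). At an unadjusted p under 0.05, 4 members were lower and 0 higher in *2OX*, and 594 of all genes passed. The member median of the difference was −0.15 on the log2 scale, where that of all genes was −0.03. Among the named members, *OSM34* had the largest difference, of −1.09 ± 0.44 (SE, n = 3). The member median in each replicate was −1.61, −1.91 and −1.89 for *2OX* and −1.86, −1.52 and −1.61 for the sextuple mutant, and these ranges overlapped.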

How the data were processed

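The values were taken from 3 tables, each holding a normalized signal per gene and library that the authors deposited. The submitters' processing notes name Bowtie 0.12.2 and TAIR10. The study's methods name Cufflinks and RPKM for RNA-seq of total RNA and refer to earlier work for the fractions; whether the same steps made these tables is not given in the sources used here. Most values are not whole, so the depth in reads is unknown and no count model was used. Columns of the authors' own log2 fold changes, ratios, p-values, adjusted p-values and variable importance scores were not used.

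Members and gene lists were chosen with earlier results of these data known, and the classes LHCB1, TBL, glycosyltransferase, protease, pectin enzyme, transporter and WIND were added after the members had been seen. Values were taken as log2(value + 1) and genes that reached 10 in 3 or more libraries were tested with limma 3.58.1 in R 4.3.3 (variance trend, two-sided p, Benjamini-Hochberg over all genes of a fit, threshold 0.05). For polysome against monosome and for *2OX* against the sextuple mutant, libraries were centred on the median of nuclear genes other than rRNA; AA and DMSO were compared on values as deposited. Col replicates 2 and 4 are each in 2 tables, and the centred ratios of replicate 2 differed between them by a median of 0.0027 (SD 0.0348). Gene models, sequences and product names came from RefSeq TAIR10.1, in which all 13530 eligible genes were found, and were read with Biopython 1.88; coordinates are those of that annotation. Scripts ran in Python 3.11.15 with pandas 2.3.3; matplotlib 3.10.9 made the figures. The fits were tested on simulated data.

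Genes were named by a rule: the 10 lowest ratios in Col, 3 on either side of the limit, up to 3 per class, the 3 lowest and 3 highest ratios in each group, and up to 5 per direction with the largest changes with AA among called genes whose replicates did not overlap. Members outside this rule were picked with their values in view. Same-numbered monosome and polysome libraries deviated together in *2OX* (correlations of 0.196 to 0.334 over genes), so the numbers pair them there. The correlations were lower but positive in the other groups compared, and the main fits used no pairing. Alternatives were another centring, a replicate block, a pseudocount of 10, 2 other filters on low values, no variance trend, each replicate left out, and the 100 members with the lowest ratio.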

Additional observations from a re-analysis of the deposited data

How the results depend on the processing

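No result reversed. Members lower in polysomes numbered 197 to 199 in DMSO-treated wild type, 188 to 198 in AA-treated wild type, 190 to 198 in the sextuple mutant and 192 to 200 in *2OX* over the other settings, and 198 to 199, 178 to 191, 193 to 198 and 187 to 199 with a replicate left out. With values as deposited the median of all genes moved to −0.15, −0.16, 0.41 and 0.40 and that of the members to −1.99, −1.90, −1.35 and −1.48. Restricted to the 100 members with the lowest ratio in Col, counts were 98, 96, 100 and 100, and with AA 13 lower and 9 higher in monosomes and 13 lower and 21 higher in polysomes, since fewer members were counted. With AA, leaving out a replicate gave 17 to 24 lower and 14 to 38 higher in monosomes, 16 to 21 lower and 28 to 46 higher in polysomes, and 0 for TE and for *2OX* against the sextuple mutant; the cause of the spread was not tested. Over the other settings these were 22 to 27 and 19 to 29 in monosomes and 18 to 21 and 30 to 50 in polysomes. With the replicate block, the counts were 198, 194, 198 and 200 for the 4 groups, 26 lower and 25 higher in monosomes, 21 lower and 50 higher in polysomes, and 0 for the change in TE and for the lines. The block changed no call by a factor of 1.5. Outside *2OX*, monosome and polysome libraries of the same number correlated by 0.0492 to 0.166 in DMSO-treated and 0.0794 to 0.118 in AA-treated wild type. In the sextuple mutant the range was 0.0802 to 0.144. Within each group these lay above the correlations of different-numbered libraries, so the numbers may pair the fractions there too. Between DMSO and AA libraries of a fraction, the same number gave correlations of only −0.0478 to 0.0789. Of the results for single named members, 4 lost the threshold under at least 1 alternative: AT5G42730 and *ATPMEPCRD* in *2OX*, AT1G70885 in AA-treated wild type and *OMTF3* in the sextuple mutant. *ENA*, AT1G53030 and AT3G05760 in AA-treated wild type, *GDU4* in DMSO-treated wild type and *ATL2* in *2OX* gained it under at least 1. The number of replicates and the unknown depth limit what can be told of members near the lower limit of 100 units.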
